A study of Mus musculus with 9 samples.

Results

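Naive CD4+ T cells of the mouse spleen were described here from the 3 libraries of untreated mice, out of 9 libraries in the study. The 3 libraries were chosen by their titles and by nothing measured in them. They came from wild-type mice of strain C57BL6/J that received no treatment, and the cells were labelled naive CD4+ T cells of the spleen. The study's other 6 libraries, 3 from mice given an antibody against IL-1b and 3 from mice given the NLRP3 inhibitor MCC950, each for 10 days, did not enter any value below. Polyadenylated RNA was sequenced after directional library preparation. The labels give neither the age, sex or number of the mice nor how the cells were sorted, and no label says that the 3 libraries come from separate mice, so the spread between them may be technical.

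Naive CD4+ T cells are mature helper T cells that have left the thymus and have not yet met their antigen. They circulate between blood and lymphoid organs, entering lymph nodes through adhesion molecules and the chemokine receptor CCR7 and leaving along gradients of sphingosine-1-phosphate. They do not divide, they are kept alive by interleukin-7 and by weak contacts between their T cell receptor and self peptides, and a set of transcription factors holds them in this quiescent state. They make few cytokines until they are activated.

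The libraries held 17335367, 21394797 and 20236615 expected counts, which are the estimated reads per gene. Levels are given as TPM, the scaled share of all transcripts, which relates the reads of a gene to its length and therefore allows genes to be compared. A gene was taken as detected when it reached a TPM of at least 1 in all 3 libraries, and ranks count down from the highest mean TPM among the 55487 genes in the files. Detected genes numbered 11115, among them 9813 of 21974 protein-coding genes, or 44.7%. Of these 9813 genes, 1281 had a mean of 100 TPM or more. Counts from the gene lists below stand beside these values, and the lists were chosen with earlier results of these data known. A single library held 12013 ± 12.1 genes at a TPM of at least 1 (SD, n = 3). No read was assigned to 36171 genes in any of the 3 libraries. Pearson's r of log2(TPM + 1) over detected genes lay between 0.986 and 0.987 for the 3 pairs of libraries, a correlation across genes, which are not independent replicates. The libraries differed by more than counting error, with a median chi-square per gene between 1.71 and 1.79 where counting alone gives 0.455, so none was treated as a second deposit of another.

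The cell type label was first set against its markers. Cd4, the coreceptor that defines the lineage, stood at 448, 440.4 and 467 TPM in libraries 1, 2 and 3. Ccr7, the lymph node homing receptor, stood at 499, 489 and 508 TPM, and Il7r, a chain of the interleukin-7 receptor, at 263, 270.3 and 263 TPM. All 3 markers ranked among the highest 438 genes in every library. Cd8a, a chain of the coreceptor of cytotoxic T cells, had 0.76, 0.37 and 0.42 TPM, below detection in each library. Cd44, an adhesion molecule that rises after activation, had 10.2, 11.4 and 11.8 TPM. The mean of Cd44 was 11.1 ± 0.868 TPM (SD, n = 3). Xist, the RNA of the inactive X chromosome, was listed at 0 TPM in all 3 libraries with 1 count in all, and the Y-linked gene Ddx3y stood at 75.9, 84.4 and 80.6 TPM, with Eif2s3y, Kdm5d and Uty detected too.

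**Figure D1:**
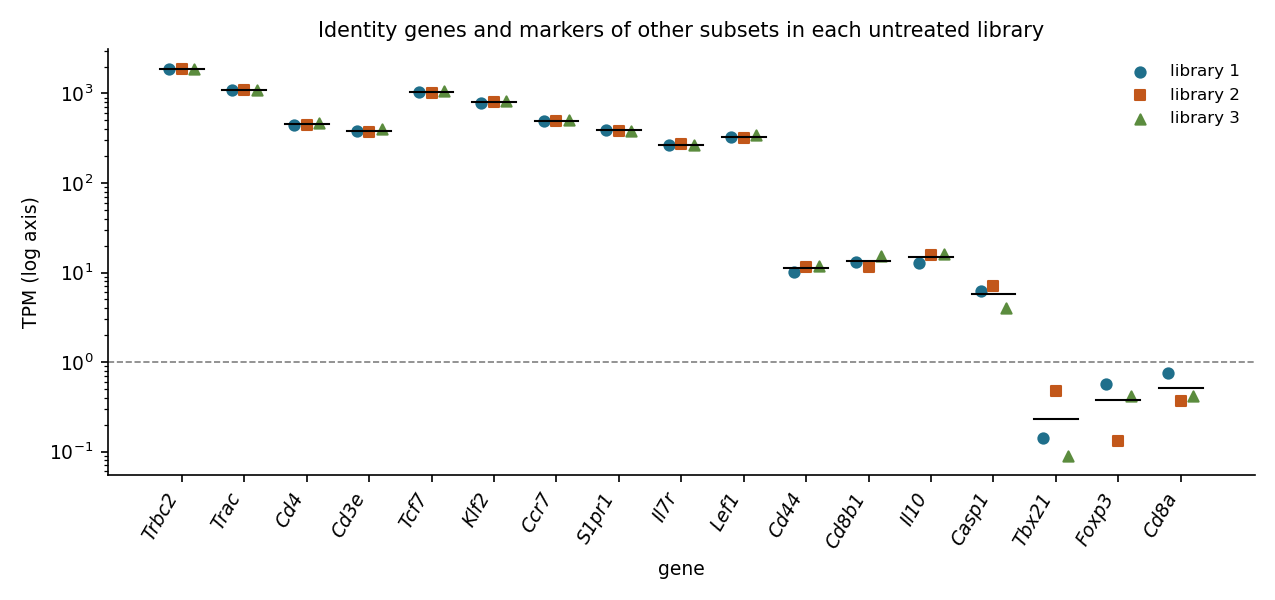
TPM of T cell genes and of markers of other subsets in each of the 3 untreated libraries, on a log axis; points are libraries, short lines their means, and the dashed line is the detection minimum of 1 TPM. The T cell genes from Trbc2 to Lef1 lie above 260 TPM in all libraries, Cd44, Cd8b1, Il10 and Casp1 lie between 4.05 and 16.1 TPM, and Tbx21, Foxp3 and Cd8a lie below 1 TPM.

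RNA of these cells was concentrated in few genes. The most abundant 10 genes held 10.3% ± 0.0468 of all TPM, the most abundant 100 held 41.8% ± 0.0725 and the most abundant 1000 held 70.5% ± 0.00760 (SD, n = 3). The number of genes that together held 50% of TPM was 177, 176 and 176. The 139 genes with a mean of 1000 TPM or more made up 46.9% of TPM, and the 6562 genes between 10 and 100 TPM made up 23.7%. On expected counts scaled to depth alone (CPM), which are not divided by length, 700.3 genes were needed for the same 50%, and the first 100 held 21.3%. The median effective length of protein-coding genes was 567 bases in the class of 1000 TPM or more, 1718 bases between 100 and 1000 TPM and 2167 bases between 10 and 100 TPM.

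Protein synthesis was the leading class. Eef1a1, which delivers aminoacyl-tRNA to the ribosome, had the highest mean, with 13383, 13392 and 13355 TPM. Rpl13a, a protein of the large ribosomal subunit, followed with 13499, 13259.8 and 13314 TPM, and Rps27, of the small subunit, with 12181, 11939.6 and 12116 TPM. These 3 genes varied by no more than 125 TPM (SD) between libraries. The cytosolic ribosomal protein genes held 30.5% ± 0.0836 of TPM (SD, n = 3), and 84 of 87 were detected, with a median of 3281 TPM against 25.8 TPM for all detected protein-coding genes. They filled 70 of the first 100 ranks. The 3 that were not detected were Rpl10l and Rpl3l, without a count, and Rpl39l, with 0.43, 0.45 and 0.24 TPM, all 3 being paralogs of widely used ribosomal protein genes. Translation factors held 2.81% ± 0.0105, with 65 of 68 detected. Ribosomal protein genes have many processed copies in the genome, and how reads were shared with these was set by the authors' quantification. In CPM the ribosomal protein share was 9.61%.

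Outside the ribosome and the mitochondrion, the 20 highest protein-coding genes were Eef1a1, Tpt1, H2-K1, Tmsb4x, Hspa8, Tmsb10, Actb, B2m, Hsp90ab1, Shisa5, Junb, Eef2, Rack1, Hspa1b, H2-D1, Ubb, Eef1b2, Pfn1, Ddx5 and Ppia. Translation accounts for Eef1a1, Eef2, Eef1b2 and Rack1, a protein bound to the ribosome. H2-K1, the heavy chain of a class I MHC molecule, had 6921, 7019 and 6929.8 TPM, and its partner B2m 2861, 2789.6 and 2731 TPM. All 20 genes of MHC class I presentation were detected, with a median of 221 TPM, and the list held 1.69% ± 0.0120 of TPM. Actin and motility genes held 2.94% ± 0.0105, with 39 of 39 detected, led by Tmsb4x and Tmsb10, which bind actin monomers, at means of 4299.9 and 4145 TPM. Actb had 3931, 3909 and 4052 TPM.

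Stress and immediate early transcripts also stood high in the libraries of untreated mice. The labels do not say how the cells were sorted, and whether these levels held in the animal was not tested. Hspa8, the constitutive cytosolic HSP70 chaperone, had 3977, 4438 and 4078 TPM. The inducible HSP70 gene Hspa1b had 2398, 2409 and 2468 TPM, and Hspa1a 1449, 1451 and 1477 TPM. These last genes are near-identical copies, so the split between them is uncertain. All 28 heat shock and chaperone genes were detected, with a median of 234 TPM, a median rank of 484 (807.5 by CPM) and 1.86% ± 0.0294 of TPM, and Hspb1, a small heat shock protein, was lowest at a mean of 5.16 TPM. Immediate early genes, which are transcribed within minutes of a stimulus, had 24 of 26 members detected, a median of 248 TPM and 1.02% ± 0.00740 of TPM. Junb, a subunit of the AP-1 factor, had 2590.0, 2549 and 2629 TPM. Fos had 1008, 1012 and 1005 TPM, Jun 730.2, 736 and 729 TPM, and Nr4a1, an orphan nuclear receptor induced through the T cell receptor, 669.8, 673 and 679 TPM. The libraries therefore lay close together for these genes, with coefficients of variation under 2%. Cd69, an early activation marker, had 377, 383 and 357 TPM. Fosl1, with 0, 0.39 and 0.09 TPM, and Ier3, with 0.91, 0.51 and 1 TPM, were not detected.

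The genes of the antigen receptor were all detected. The list of T cell receptor and CD3 genes, which also holds the coreceptor gene Cd4, had 8 of 8 members detected, a median of 504 TPM and a median rank of 232. Trbc2, a constant region of the beta chain, had 1889, 1897 and 1873 TPM, Trbc1 1013, 955 and 954 TPM, and Trac, the constant region of the alpha chain, 1101, 1081 and 1087 TPM. The signalling chains were lower on the same scale, with means of 556 TPM for Cd3g, 412 TPM for Cd247, 385 TPM for Cd3e and 282 TPM for Cd3d. Of the variable segments, 22 of 35 beta and 91 of 128 alpha segments were detected, and the highest, Trbv13-2, had 319.6, 292 and 358 TPM, or 17.7% ± 1.81 of all beta segments. Trdc, the constant region of the gamma delta receptor's delta chain, had a mean of 3.04 TPM. All 30 genes of proximal receptor signalling were detected, with a median of 178 TPM. The highest were Dgka, a diacylglycerol kinase that dampens the signal, at 902, 911 and 925 TPM, the kinase Lck at 840.5, 926 and 941 TPM, the phosphatase Ptprc at 899, 899 and 868 TPM, and the adaptor Lat at 729, 751 and 746 TPM. Tec, a tyrosine kinase, was the lowest at a mean of 11.5 TPM.

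Of 16 homing and recirculation genes 11 were detected, or 68.8%, against 44.7% of all protein-coding genes. Of the 16, 8 stood at 100 TPM or more, and the median was 83.5 TPM. Klf2, a transcription factor that drives S1pr1, had 789.9, 795 and 816 TPM, and S1pr1, the receptor for exit from lymphoid organs, 392, 386 and 385 TPM. Of 23 chemokine receptor genes 6 were detected, a share of 26.1%, below that of protein-coding genes as a whole. Ccr7 and Cxcr4, with 402, 416 and 410.3 TPM, were the only members above 100 TPM, and the other detected members had means of at most 3.25 TPM. Among the members not detected, means were 0.773 TPM for Cxcr3, 0.17 TPM for Ccr2 and 0.0233 TPM for Ccr6. Among surface molecules, 36 of 40 were detected, led by Cd52 at 959, 988 and 1054 TPM, Ly6e at 999.6, 997 and 984 TPM and Thy1 at 617, 615 and 624 TPM. The members not detected were the checkpoint receptors Lag3 and Havcr2, the activation receptor Tnfrsf9 and the integrin Itgae, of which Havcr2 had no count. The GIMAP family, GTPases of lymphocyte survival, had 8 of 8 members detected, a median of 280.2 TPM and a mean of 1172 TPM for its highest member, Gimap6.

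Transcription factors of T cell identity and quiescence were detected in 42 of 43 cases, with a median of 79.6 TPM. Tcf7, a factor of naive and stem-like T cells, had 1035, 1011 and 1053 TPM, and its relative Lef1 326, 319 and 344 TPM. Btg1, which restrains proliferation and mRNA stability, had 958, 983 and 960.0 TPM. Ets1 stood at a mean of 566 TPM, Ikzf1 at 399 TPM and Satb1 at 397 TPM, and Tox2, at 0.0933 TPM, was the member not detected. The list of helper subset factors was lower by median, at 11.1 TPM. Of its 19 members 14 were detected, or 73.7%, against 44.7% of all protein-coding genes. In this list 3 members stood at 100 TPM or more, the highest at a mean of 327 TPM. Tbx21, of the Th1 subset, had 0.14, 0.47 and 0.09 TPM, and Foxp3, of regulatory T cells, 0.57, 0.13 and 0.42 TPM. Both were below detection, and their libraries differed by several fold. Gata3, of the Th2 subset and also needed by all CD4+ T cells, had 39.8, 40.4 and 39.7 TPM, and Bcl6, of follicular helper cells, 11.1, 10.7 and 11.4 TPM.

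Cytokine genes were detected less often than their receptor chains, at 32.3% against 79.3%, beside 44.7% of all protein-coding genes. Of 31 cytokine genes 10 were detected, and 10 others had no count in any library. Ltb, a membrane lymphotoxin that shapes lymphoid organs, had 788, 779 and 800.5 TPM, Il16 198, 202 and 210.2 TPM, and Cd40lg, the helper ligand for B cells, 187, 173 and 193 TPM. No other of the 31 listed genes exceeded 100 TPM. Il2 had 0.18, 0 and 0 TPM, Il4 0, 0.69 and 0 TPM, and Ifng 2.2, 0.4 and 0.28 TPM, whereas Tnf had 21.5, 19.8 and 19.8 TPM and Il10 12.8, 15.7 and 16.1 TPM. Of 29 cytokine receptor chains 23 were detected, led by Il2rg, the chain shared by receptors of interleukin-2 and interleukin-7, at 529, 526 and 548 TPM. Il2ra, which completes the high-affinity interleukin-2 receptor after activation, had 0.33, 0.54 and 0.23 TPM.

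The study was built around IL-1b and the NLRP3 inflammasome. No read was assigned to Il1b, to Nlrp3 or to Il1r1, the signalling receptor of IL-1b, in any of the 3 libraries. Over the group, 3 counts, the limit that a count of 0 allows, correspond to 0.124 TPM for Il1b, 0.0272 TPM for Nlrp3 and 0.0207 TPM for Il1r1. These limits cover counting error only. Of the 22 genes of the inflammasome and IL-1 list, 11 were detected and 6 had no count. That share of 50% lay near the 44.7% of all protein-coding genes. The adaptor Pycard had 83.5, 74.1 and 66.5 TPM, the DNA sensor Aim2 49.5, 54.0 and 53.1 TPM, the pore-forming protein Gsdmd 108, 109 and 114 TPM, and the protease Casp1 6.14, 7 and 4.05 TPM. Myd88, the adaptor of IL-1, IL-18 and Toll-like receptors, had 59.7, 59.8 and 57.4 TPM, and Il18r1 34.0, 36.5 and 34.9 TPM.

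Genes of cell division spanned a wide range of levels. Mki67, a marker of cycling cells, had 0.72, 0.6 and 0.49 TPM, and Bub1 had no count. Of the 34 genes of cell cycle and DNA replication 23 were detected, or 67.6%, against 44.7% of all protein-coding genes. Their median over all members, detected or not, was 3.23 TPM. Pcna, the replication clamp, which also serves DNA repair, was the highest, at 226, 226 and 229 TPM, followed by the D-type cyclins Ccnd3, at 230.3, 202 and 207 TPM, and Ccnd2, at 139, 173 and 181 TPM. The CDK inhibitor Cdkn1b had 214, 215 and 207 TPM. In metabolism, 77 of 78 nuclear-encoded genes of the respiratory chain and ATP synthase were detected, with a median of 92.0 TPM, and 18 of 20 genes of glycolysis, with a median of 55.3 TPM. Gapdh had 644, 627 and 682 TPM, while Hk2, the hexokinase induced in activated cells, had 0.2, 0.14 and 0 TPM. Of 40 interferon-stimulated genes 39 were detected, with a median of 35.9 TPM beside 25.8 TPM for all detected protein-coding genes, and 7 stood at 100 TPM or more.

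Markers of other cells and states were read as a check of the preparation. The share of all protein-coding genes that were detected, 44.7%, is the yardstick for each count below. Of 20 markers of memory and activated T cells 13 were detected, led by Izumo1r, Id2 at a mean of 64.9 TPM and Lgals1 at 49.96 TPM, and the list summed to between 329 and 353 TPM. Of 10 plasma cell markers 3 were detected, Xbp1 at a mean of 60.9 TPM, Irf4 at 18.7 TPM and Prdm1 at 3.75 TPM, all of them transcription factors, while Sdc1, which defines plasma cells, had 0.24 TPM. Of 17 red cell and platelet markers 4 were detected, led by the transferrin receptor gene Tfrc at a mean of 36.98 TPM and Gata1 at 7.11 TPM. Of 10 immature thymocyte markers 4 were detected, led by Themis at a mean of 92.9 TPM and Cd1d1 at 49.1 TPM, with Dntt at 7.91 TPM and Rag2 at 0.593 TPM. Of 19 neutrophil markers none was detected and 12 had no count, and the list summed to between 1.34 and 3.38 TPM in a library. Of 26 markers of monocytes, macrophages and dendritic cells 2 were detected, Cd68 at a mean of 4.4 TPM and Bst2, an interferon-stimulated gene, at 64.2 TPM, and the list summed to between 72.8 and 76.1 TPM. Of 24 B cell markers 11 were detected, or 45.8%, close to the share of all protein-coding genes. The B cell list summed to between 379 and 403 TPM. Ralgps2 followed the leading gene at a mean of 38.9 TPM and Cd74 at 13.6 TPM. The leading gene was Ighm, the heavy chain of IgM, at 316, 294 and 297 TPM and rank 378. Defining genes of B cells were far lower, with 3.22, 4.19 and 1.59 TPM for Ighd, 4.07, 5.12 and 5.24 TPM for Igkc, 2.27, 1.99 and 1.53 TPM for Cd79a and no count for Vpreb3. Of 20 CD8, cytotoxic and NK markers 7 were detected, summing to between 108 and 109 TPM. Among them were Cd8b1 at 13.2, 11.4 and 15.3 TPM, with Cd8a below 1 TPM, Ctsw at 38.9, 32.8 and 33.9 TPM and Prf1 at 27.2, 29.8 and 28.7 TPM, while Klrb1c, Ncr1 and Klrg1 had no count. Of 13 markers of regulatory T cells 7 were detected, summing to between 237 and 246 TPM. Izumo1r, the folate receptor 4, had 112, 117 and 115 TPM and Ctla4 35.9, 32.9 and 34.8 TPM beside a Foxp3 mean of 0.373 TPM. In bulk RNA a few cells of another type and a low level in all cells cannot be told apart. Only 1 of 1093 olfactory receptor genes and 1 of 19 markers of other organs, Epcam at a mean of 1.66 TPM, were detected. Of 16 stromal and endothelial markers 2 were detected, Tagln at a mean of 5.18 TPM and Pecam1, the adhesion molecule CD31, which naive T cells carry as well, at 123, 115 and 121 TPM, while Cdh5, a defining gene of endothelium, had a mean of 0.0233 TPM.

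**Figure D2:**
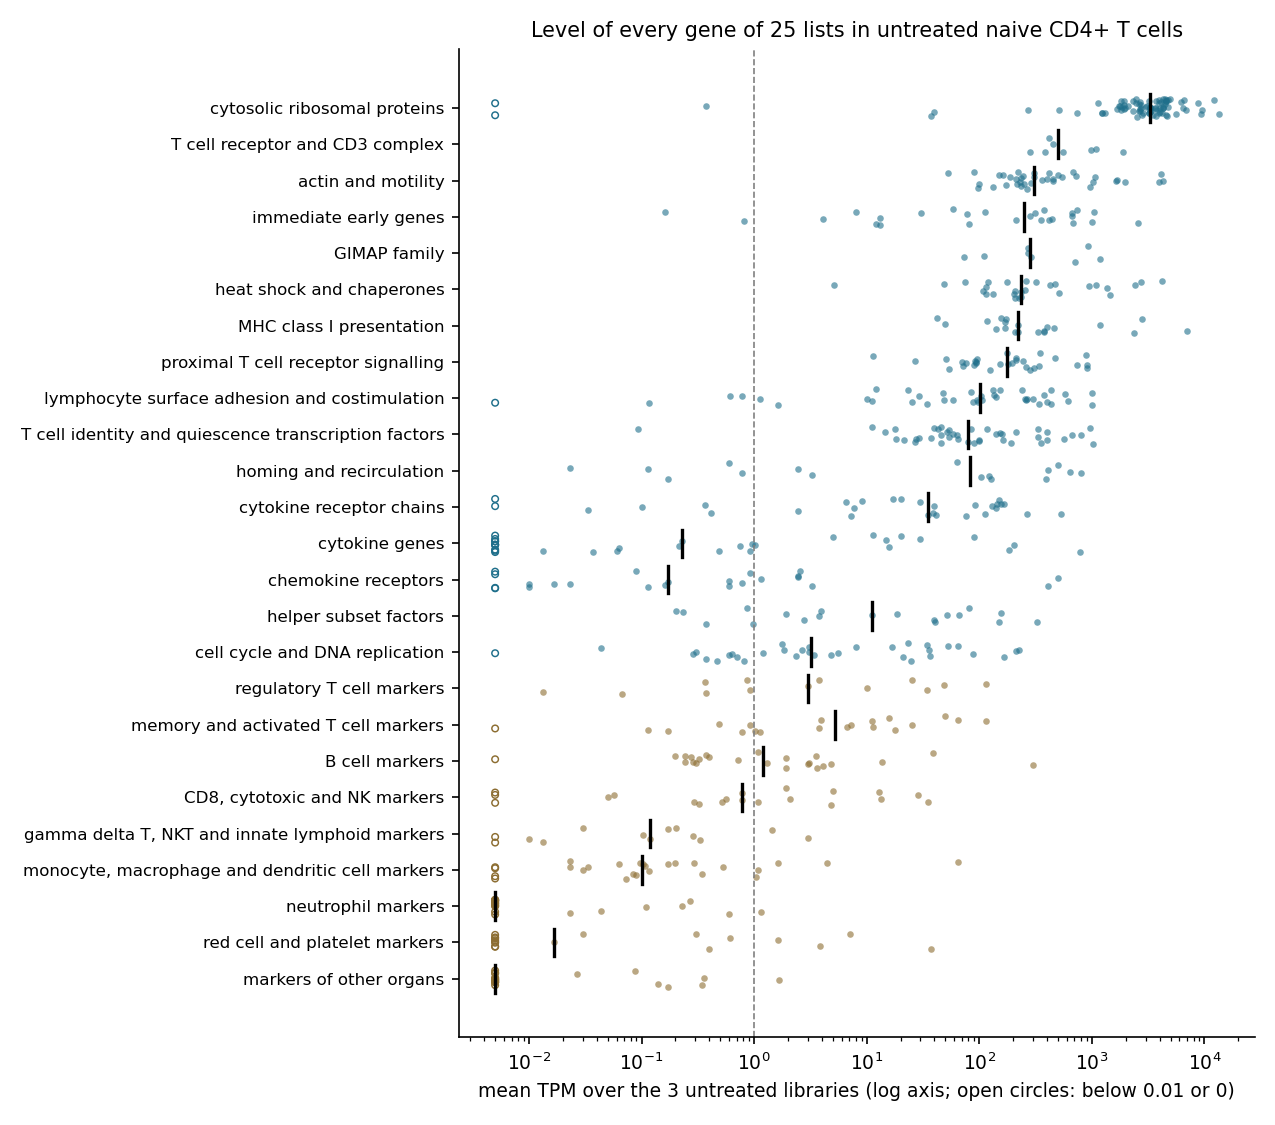
Mean TPM over the 3 untreated libraries, on a log axis, of every gene in 25 lists; each point is a gene, black ticks are list medians, open circles at the left edge are genes below 0.01 TPM, and brown marks the marker lists. Ribosomal protein genes centre on 3281 TPM and the T cell receptor and CD3 genes on 504 TPM, while the neutrophil markers and the markers of other organs have medians of 0.

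Protein-coding genes held 95.2% ± 0.0358 of TPM, pseudogenes 2.60% ± 0.0759, long noncoding genes 1.10% ± 0.0173 and T cell receptor segments 0.728% ± 0.0137 (SD, n = 3). The highest long noncoding genes were Gas5, host of small nucleolar RNAs and induced by growth arrest, at 655, 674 and 609.5 TPM, and the nuclear RNA Malat1 at 500.4, 495 and 481 TPM. Snhg8, Snhg1 and Snhg12, 3 further hosts of small nucleolar RNAs, followed at means of 317, 279.5 and 182 TPM.

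Of the pseudogene level, 1.35% of TPM lay in a single stretch of chromosome 1 that is a nuclear copy of mitochondrial DNA. The stretch holds 7 unprocessed pseudogenes between bases 24611535 and 24616197 of mm10, and their transcript sequences were compared with those of the mitochondrial protein-coding genes. Gm10925 was identical to mt-Atp6 over 678 of 678 bases, Gm28437 to mt-Co3 over 783 of 783 bases, Gm10222 to mt-Nd4l over 294 of 294 bases, and Gm28438 matched mt-Nd3 at 344 of 345 bases. These genes were chosen after their values were seen. Reads of identical sequence can be divided between the copies only by estimation.

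That division differed between libraries. The mitochondrial gene mt-Co3, a subunit of cytochrome c oxidase, had 794, 2256 and 1702 TPM, while its copy Gm28437 had 4515, 3059.9 and 3417 TPM. Library 1 was lowest for the gene and highest for the copy, and their sum was 5308, 5316 and 5119 TPM, a range of 1.04-fold against 2.84-fold for the gene alone. The respiratory complex I gene mt-Nd4l had 2038, 1673 and 545 TPM and its copy Gm10222 731, 909 and 1957 TPM, with sums of 2769, 2582 and 2502 TPM. For mt-Nd3 the values were 835, 208 and 294 TPM, for its copy Gm28438 646, 1125 and 975 TPM, and for the sum 1481, 1334 and 1269 TPM. The gene mt-Atp6, a subunit of ATP synthase, had 2015, 1712 and 1375 TPM and its copy Gm10925 7586, 7686 and 7823 TPM, with sums of 9601, 9398 and 9198 TPM. The sums thus varied by at most 1.17-fold where the mitochondrial genes alone varied by 1.47-fold to 4-fold. The copy of mt-Co2, Gm28661, is also identical over its 681 bases but received 0.06, 0.32 and 20.9 TPM beside 7824, 7669 and 7830.3 TPM for mt-Co2. Genes on the mitochondrial chromosome held 4.57% ± 0.147 of TPM, and 5.92% ± 0.0930 together with the 7 copies (SD, n = 3).

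**Figure D3:**
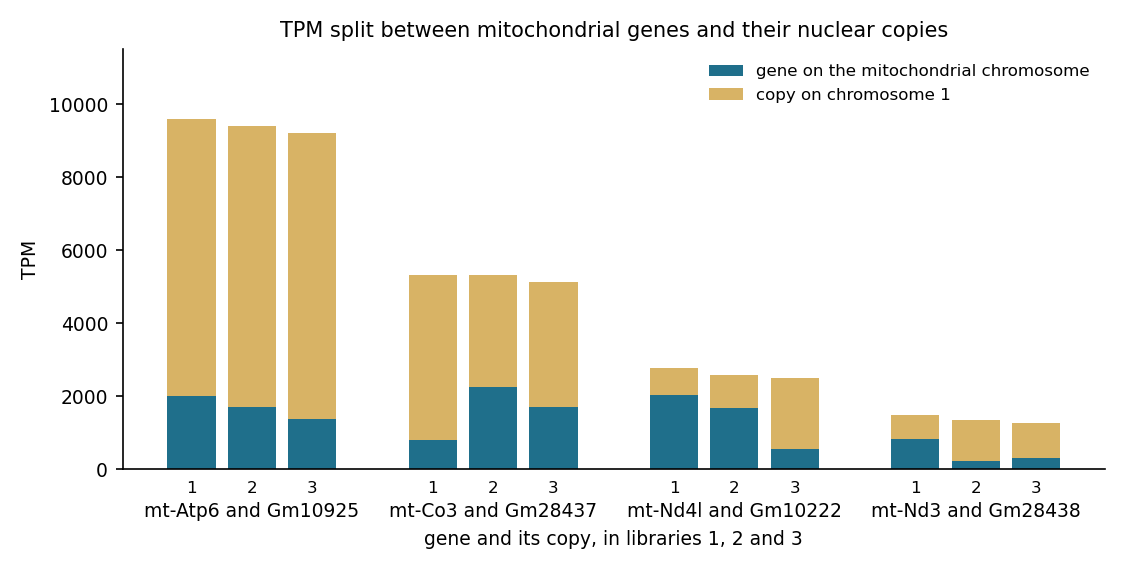
TPM of 4 mitochondrial genes (blue) and of their copies on chromosome 1 (tan), stacked, in libraries 1, 2 and 3. The blue part changes between libraries, for mt-Co3 from 794 to 2256 TPM, while the height of the stack for mt-Co3 stays between 5119 and 5316 TPM.

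The seventh-ranked gene rested on few reads. The mitochondrial gene mt-Atp8 had 8932, 9161 and 9157 TPM from 1195, 1821 and 1619 expected counts, because its transcript of 204 bases had a mean effective length of 12.2 bases after the fragment length was subtracted. Effective length is the number of positions at which a fragment can start, and TPM divides by it. By CPM mt-Atp8 ranked 2822, while mt-Co1, with 9169, 9043 and 8813 TPM, ranked second on that scale as against eighth by TPM. Genes with an effective length under 100 bases held 1.44% of TPM and 0.0295% of expected counts, and 49 of them were detected.

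Spread between the 3 libraries fell with level. The median coefficient of variation was 22.1% for genes between 1 and 10 TPM, 7.70% between 10 and 100 TPM, 3.83% between 100 and 1000 TPM and 1.70% at 1000 TPM or more. Counting alone would give medians of 10.8%, 3.45%, 1.52% and 0.651% over genes with at least 10 mean counts. The observed medians cover genes above 0 TPM in all 3 libraries and also carry differences in effective length. For counts scaled to depth, in genes with at least 10 mean counts, the mean ratio of variance to mean was 4.45, 4.11, 5.31 and 45.8. Counting alone gives a ratio of 1, so by this mean the spread of counts exceeded counting error in each class. Single genes can move such a mean. The highest class holds mitochondrial genes and their chromosome 1 copies, such as mt-Co3 with 5374, 19134 and 13606 counts. The ratio of 45.8 therefore does not describe the typical gene of that class. The protein-coding genes with the smallest coefficients of variation at 100 TPM or more were Myl12a, a myosin light chain, at 307.1, 307.1 and 306.9 TPM, Eef1a1, Mcl1, a survival protein of the BCL2 family at 432, 434 and 433 TPM, the GTPase Rhoa and the phosphatase Dusp2. Their values ran from 0.0303% to 0.213%, below the medians expected from counting alone in their classes. As extremes picked from many genes over 3 libraries, they are not shown to be steadier than other genes.

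**Figure D4:**
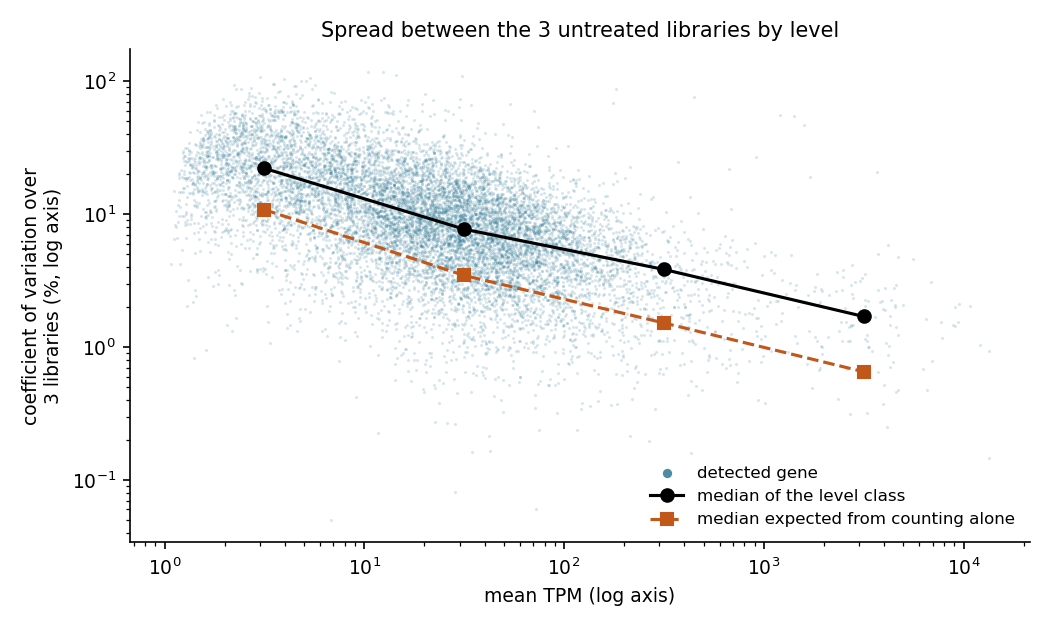
Coefficient of variation over the 3 untreated libraries against mean TPM, both on log axes, for the 11115 detected genes (points), with the median of each level class (black circles) and the median expected from counting alone (orange squares). Both lines fall with level, from 22.1% and 10.8% between 1 and 10 TPM to 1.70% and 0.651% at 1000 TPM or more.

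Few well-expressed genes differed between libraries. Among 7911 genes with a mean of at least 10 TPM, 144, or 1.82%, had a highest library at least 2 times the lowest. In CPM, 79 of the 144 did so and 65 did not, and in 58 of those 65 the effective length differed at least 1.5-fold between libraries. Of 64 protein-coding genes with an effective length of at least 100 bases and an established name, 9 were also 2-fold apart in counts. Ece1, an endothelin-converting enzyme, had 11.2, 69.4 and 11.5 TPM from 630.0, 785 and 757 counts, with effective lengths of 4586, 751 and 4591 bases. Pnrc2, a coactivator and mRNA decay factor, had 367, 91.5 and 89.0 TPM from 1741, 2204 and 2057 counts, with effective lengths of 388, 1598 and 1617 bases. Their libraries stand apart in TPM and not in counts relative to depth, where the ratio of highest to lowest was 1.03 for both. Ccdc191 and Vps39 did the same, with ratios of 6.79 and 3.84 in TPM and 1.06 and 1.08 in CPM. RSEM's effective length of a gene is an average over its transcripts, weighted by their estimated abundance, so it moves with the transcripts to which reads were assigned. Zc3h11a, a zinc finger protein, has a pair of overlapping gene records on chromosome 1. The first had 128, 103 and 91.2 TPM and the other 4.83, 41.9 and 43.6 TPM, while their sum was 133, 144 and 135 TPM.

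Promoter sequence was set against these levels. RefSeq windows on GRCm38.p6, which run from 250 bases before to 50 bases after a transcription start, were matched for 7933 of the 9813 detected protein-coding genes, or 80.8%, and a gene with several starts has several windows. CpG is a C followed by a G. Vertebrate genomes have lost most CpG through methylation, except in islands, which cover many promoters of widely used genes. A window was taken as CpG-rich when its CpG count was at least 0.6 of that expected from its C and G content. The housekeeping gene Eef1a1 and the T cell gene Il7r show the difference in the 250 bases before their starts, where CG is in capitals and occurs 18 times in Eef1a1 and 1 time in Il7r.
Eef1a1 (chr9:78481725-78481974, minus strand): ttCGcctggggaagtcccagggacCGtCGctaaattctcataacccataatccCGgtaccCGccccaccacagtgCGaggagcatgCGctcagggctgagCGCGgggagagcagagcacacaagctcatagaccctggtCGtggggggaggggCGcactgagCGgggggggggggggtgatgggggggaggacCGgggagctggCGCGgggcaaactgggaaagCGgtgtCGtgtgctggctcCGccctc
Il7r (chr15:9529877-9530126, minus strand): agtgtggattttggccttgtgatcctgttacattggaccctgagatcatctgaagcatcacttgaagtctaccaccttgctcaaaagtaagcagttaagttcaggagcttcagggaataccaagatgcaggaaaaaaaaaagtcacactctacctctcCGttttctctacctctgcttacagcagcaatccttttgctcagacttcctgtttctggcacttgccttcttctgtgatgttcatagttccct

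CpG-rich windows rose from 18.3% of 6986 windows of genes listed at 0 TPM through 39.9% above 0 and under 1 TPM and 58.9% between 1 and 10 TPM to 78.0% of 6386 windows between 10 and 100 TPM. Above that the share was 70.0% between 100 and 1000 TPM and 78.5% of 130 windows at 1000 TPM or more. Ribosomal protein genes fill 70 of the first 100 ranks, so values of the highest class partly describe that family. Gene lists differed in the share of CpG-rich windows. Of the T cell lists, 15.4% of windows of homing genes, 16.7% of surface molecules, 34.2% of proximal receptor signalling and 0 of 9 GIMAP windows were CpG-rich, against 42.9% of cytokine receptor chains and 61.9% of T cell identity and quiescence factors. Low shares were also found outside T cell genes, with 10.3% of windows of interferon-stimulated genes, 5 of 20 of B cell markers and 6 of 20 of MHC class I presentation genes. Heat shock genes had 90.0%, immediate early genes 87.5% and ribosomal protein genes 87.5%. At a mean of 100 TPM or more, 16 of 60 windows of 48 genes from 6 T cell lists were CpG-rich, or 26.7%, against 72.7% of 1343 windows of all other genes at that level. The 6 lists are the receptor complex, proximal signalling, surface molecules, homing, cytokine receptors and the GIMAP family, and leave out the transcription factors. Klf2 and Cxcr4 held the CpG-rich homing windows. The motif TATAAA, the core of the TATA box, was found on either strand in 21.7% of windows at 0 TPM, 6.11% between 10 and 100 TPM and 13.8% at 1000 TPM or more. The motif CCGGAAG, bound by ETS factors, was in 2.30% of windows at 0 TPM, 22.6% between 10 and 100 TPM and 26.9% at 1000 TPM or more, against 11.8% of all windows, and GGGCGG, the GC box, was in 24.5%, 66.0% and 61.5% of these classes. TGACTCA, the AP-1 site, was in 2.31% of windows at 1000 TPM or more and 4.72% of all windows. TGACGTCA, the site of CREB, was in 6.92% and 2.30%, and in 12.5% of the 24 windows of immediate early genes, those of Ppp1r15a, Dusp1 and Btg2. Of the 80 ribosomal protein windows, 35% held CCGGAAG and 7.5% held TGACGTCA.

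**Figure D5:**
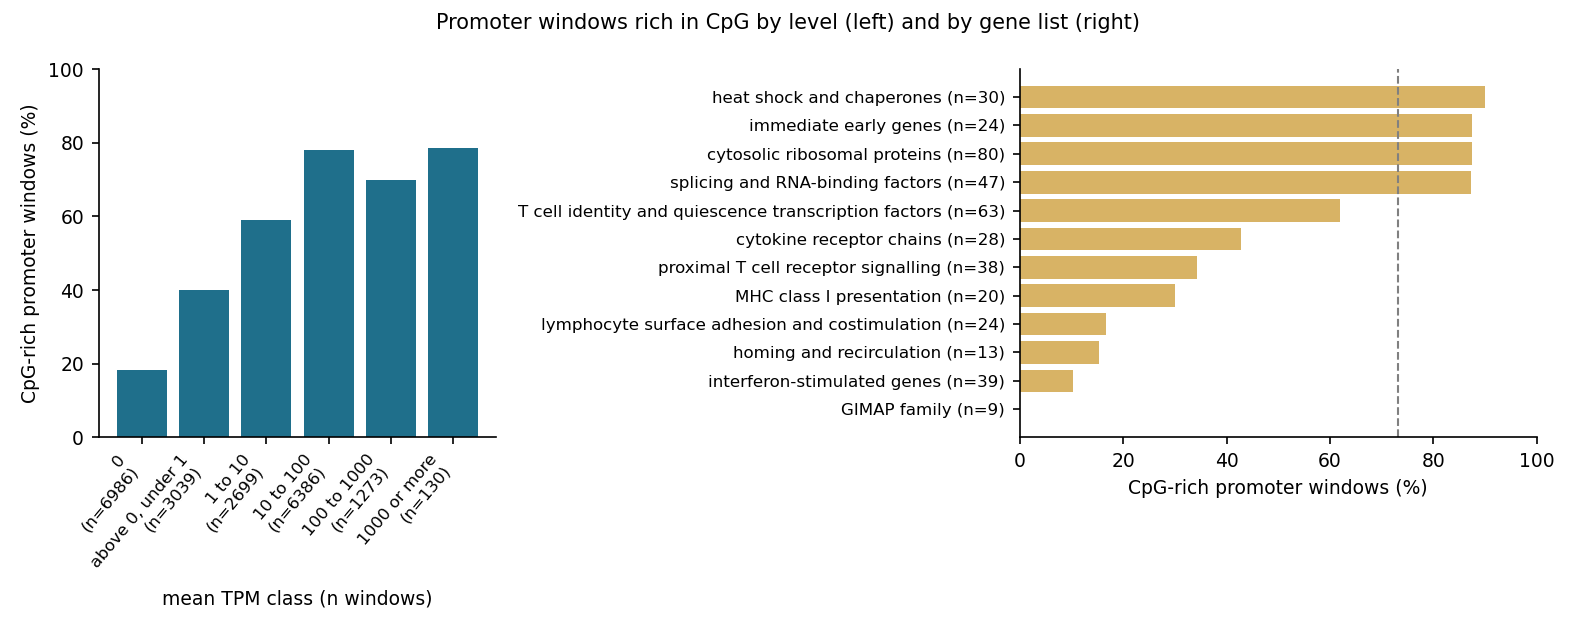
Share of promoter windows that were CpG-rich, by mean TPM class with the number of windows (left), and for 12 gene lists (right), where the dashed line is the 73.2% of windows of detected genes. The share is 18.3% at 0 TPM, 78.0% between 10 and 100 TPM, 70.0% between 100 and 1000 TPM and 78.5% at 1000 TPM or more, while the lists of T cell surface, homing and GIMAP genes lie at 16.7% or less.

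Ribosomal protein messages begin with a run of pyrimidines, which links their translation to growth signals. A run of at least 8 C or T within 40 bases of the start was present in 48.5% of windows at 1000 TPM or more, in 67.5% of the 80 ribosomal protein windows and in 28.7% of all windows. Runs on either side of the start were counted, so the count does not mark the first bases of a message. Some other lists also had high shares, with 55.6% of 9 GIMAP windows, 53.7% of 298 vomeronasal receptor windows and 50% of 24 surface molecule windows. Immediate early genes had 4.17%. The runs of 5 abundant members are shown in capitals within 30 bases around the start. They were chosen because they hold a run that begins no later than the start and fits these 30 bases. Rpl13a and Rps15, both above Rps18 in level, hold a run that did not meet this rule. The windows of the abundant Rps16, Rps28 and Rpl41 hold none.
Rps27 (chr3:90213625-90213654, minus strand): ttcgCTCCTTTCCggcggtgacgacctccc
Rps18 (chr17:33955642-33955671, minus strand): tccgCTCTCTCTTCCacaggaggcctacac
Rps24 (chr14:24490671-24490700, plus strand): ggggTCCTTCCTTgcgcgttgatatgattg
Rps9 (chr7:3704031-3704060, plus strand): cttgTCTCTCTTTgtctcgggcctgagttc
Rps6 (chr4:86857343-86857372, minus strand): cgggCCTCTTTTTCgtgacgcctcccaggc

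In the same members the level was a mean of 12079 TPM for Rps27, 6454 TPM for Rps18, 6238 TPM for Rps24, 4509 TPM for Rps9 and 4249 TPM for Rps6. Heat shock genes were searched for GAANNTTCNNGAA, the array of 3 units that heat shock factor 1 binds. It was in 7 of 30 windows, or 23.3%, and in 0.512% of all windows, and the members that held it were Hsph1, Hspe1, Hspd1, Chordc1 and Dnajb6. The windows of Hspa1b, Hspa1a, Dnaja1 and Dnajb1, with means of 2425, 1459, 1082 and 474 TPM, held no match to these exact letters. Hspe1 and Hspd1 are transcribed away from each other, and the matches found for them overlap on opposite strands of chromosome 1. The matches shown are those before the starts of Hspe1, at a mean of 422 TPM, and Dnajb6, at 115 TPM, with the motif in capitals.
Hspe1 (chr1:55088054-55088086, plus strand): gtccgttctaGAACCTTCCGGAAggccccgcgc
Dnajb6 (chr5:29735842-29735874, plus strand): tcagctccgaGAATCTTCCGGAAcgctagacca

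Interferon-stimulated genes were searched for TTTCNNTTTC, the core of the interferon-stimulated response element. It was in 22 of 39 windows, or 56.4%, against 3.37% of all windows. It is shown in capitals, as read on the gene's strand, before the starts of Igtp, Ifi203 and Irgm1, whose means were 200.3, 188 and 71.9 TPM.
Igtp (chr11:58199512-58199541, plus strand): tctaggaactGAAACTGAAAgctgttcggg
Ifi203 (chr1:173942508-173942537, minus strand): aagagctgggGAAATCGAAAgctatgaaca
Irgm1 (chr11:48871425-48871454, minus strand): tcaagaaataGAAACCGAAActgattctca

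In these 3 genes the motif reads on the other strand. The CArG box, bound by serum response factor, was in 5 of 24 windows of immediate early genes, 4 of them alternative starts of Egr2, and in 1.51% of all windows. CCAAT, on either strand, was in 73.3% of 30 windows of cell cycle genes and 85.5% of 62 windows of replication-dependent histone genes against 38.1% of windows of detected genes. The medians of these lists over all members were 3.23 and 0.527 TPM in these libraries. The libraries were made from polyadenylated RNA, so messages without a poly(A) tail are not measured by these values. Such a match describes the letters of the window and shows neither a bound site nor a cause of the level.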

How the data were processed

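The submitters' processing notes name STAR, RSEM and mm10 without versions. Expected counts, as deposited, are estimated reads for each gene and are not normalized. TPM, taken as deposited, relates them to the deposited effective length, which is about the transcript length less the fragment length, and sums to one total in each library. The labels do not state if RSEM took strand into account, so genes with an antisense partner are uncertain.

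Genes were named from GENCODE M21 (GRCm38, equal to mm10), which matched 55227 of 55487 IDs, and the 260 others held 0.0186% of TPM. Levels are means of TPM over the 3 libraries, with the SD between them. No test was run, because there is 1 group. Members and the 59 gene lists were chosen with earlier results of these data known. Named genes were the 20 highest protein-coding genes outside ribosomal and mitochondrial genes, the highest and undetected members of lists, the label checks, the 5 highest long noncoding genes, the steadiest and the most variable genes. Motifs for heat shock factor, interferon response, CArG and CCAAT were chosen after values were seen. RefSeq windows were matched by symbol or unique synonym on the same chromosome. Copies were aligned with Biopython 1.88. TMM factors came from edgeR 4.0.16 in R 4.3.3. The summaries were tested on simulated counts whose only random spread was counting error. That setting lacks the extra spread and the effective length differences of these data. Alternatives covered detection rules, unit, total, pseudocount, level minimum and each library left out. Some genes are not reported here.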

Additional observations from a re-analysis of the deposited data

How the results depend on the processing

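No paired analysis was possible because 1 group of libraries was described and nothing was tested. Over 72 alternatives, 47 values moved by less than the SD between libraries or, for counts of genes, by less than 1.5-fold, and 25 moved further. Detected genes ran from 8878 at 5 TPM to 14691 above 0 TPM. Dividing by depth and not by length moved most values: on expected counts scaled to depth alone (CPM), 700.3 genes held 50% of the total, ribosomal protein genes held 9.61%, mitochondrial genes 2.20%, the T cell receptor and CD3 genes had a median rank of 480, and 73.4% of windows at 100 or more were CpG-rich. The ribosomal protein share was 32.0% without mitochondrial genes and 32.1% over protein-coding genes only. With the chromosome 1 copies, an alternative chosen after seeing the data, the mitochondrial share was 5.92%. Using only bases before the start gave 67.8% CpG-rich windows. Leaving out 1 library gave 70.8% to 71.1%. The 144 genes at least 2-fold apart became 1453 at 1 TPM, 7 at 100 TPM, 3290 with no minimum above 0 TPM, 563 at a ratio of 1.5, 83 on CPM after TMM scaling, and from 70 to 98 when 1 library was left out: 70 without library 1, 98 without library 2 and 81 without library 3, since fewer libraries give fewer chances to differ. Genes with few counts, such as Foxp3 or Ifng, are known only to within several fold at this depth.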
